A study of Rattus norvegicus with 12 samples.

Results

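Respiratory complexes I and II are the entry points of electrons into the mitochondrial respiratory chain. Complex I takes electrons from NADH to ubiquinone in a matrix arm and pumps protons across the inner membrane in a membrane arm. Complex II, succinate dehydrogenase, oxidises succinate in the tricarboxylic acid cycle, passes the electrons to ubiquinone and pumps no protons. Some membrane subunits of complex I are encoded by the mitochondrial genome, and the other subunits of complex I and all of complex II by nuclear genes. The heart, which contracts without rest, relies on this pathway for most of its ATP.

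The nuclear genes of both complexes were taken from the deposited expression table by symbol, as Nduf followed by a, b, c, s or v and a number, together with Sdha, Sdhb, Sdhc and Sdhd. This gave 43 of 32735 rows, 39 of them Nduf rows and 4 Sdh rows. By role, 35 rows were complex I subunits, 4 were complex II subunits, 2 carried Nduf symbols outside complex I (Ndufa4, now placed in cytochrome c oxidase, and its relative Ndufa4l2) and 2 were named as a pseudogene or a copy (Ndufv3-ps1 and Ndufb4l1). A filter on low counts kept 39 rows. Of the other 4, both Ndufa1 rows had 0 reads in all 12 libraries, Ndufa4l2 had 2 reads in all and Ndufb4l1 had 1. A count of 0 allows up to 0.804 CPM in the deepest library and 1.45 CPM in the shallowest, for counting error only, and whether Ndufa1 was silent or its reads were not assigned to these rows cannot be told apart. No row was matched under the symbols Ndufs6 or Ndufb1, and these subunits were not analysed here.

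The libraries came from left ventricle punches of 12 adult wild-type Groningen rats, 1 library per rat, labelled male except RSD 40, which is labelled female and was kept. The RSD group held 6 rats that met social defeat in the resident-intruder setting on 8 consecutive days, and the CTR group held 6 unhandled rats. Messenger RNA was read near its 3′ end, and levels are CPM, counts scaled to the total of each library, divided by a scaling factor per library (normalised CPM). A level counts reads at the 3′ end of a gene and is not divided by gene length, so levels are compared between groups and not between genes.

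Libraries held 2062798 to 3731108 reads, of which 24240 to 48104 fell on the 43 rows. Rows of the mitochondrial genome took 49.7% to 58.4% of reads. CTR 22 stood apart for these genes, being the lowest of the 6 CTR libraries in 29 of the 39 tested rows, while CTR 24 was the highest in 18. RSD 33, the shallowest library, was the lowest of the RSD libraries in 12 rows and the highest in 7. CTR 22 and RSD 33 were each the lowest of all 12 libraries in 10 rows. The tissue label was checked on 12 cardiomyocyte markers, all of which were detected, with a summed level of 51998 to 57760.5 normalised CPM (median 54883) in RSD and 50440 to 57847 (median 55576) in CTR. In these bulk libraries, fewer cells of a type and less RNA per cell cannot be told apart.

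Whether repeated defeat altered the nuclear transcripts of both complexes was asked by comparing RSD with CTR. Levels lay slightly lower in RSD across most subunits, and no single row passed the test over all genes. Of the 39 tested rows, 30 had a log2 fold change below 0 and 9 above 0, with a median of −0.07. Over all 7511 genes tested, 49.3% lay below 0, with a median of 0.0036. Without the scaling factors 34 of the 39 lay below 0, and the median of all genes was −0.035. The number of rows below 0 was also 34 without CTR 22, and it was 26 without RSD 33. It fell to 20 of the 39 when 1 surrogate variable, a hidden factor estimated from all genes, was fitted. Adjusting for how much of each library fell on the top mitochondrial row left 22 of the 39 below 0. The lower levels across most subunits thus depended on the fit. At limma adjusted p under 0.05 stood 0 of the 39 rows, beside 0.0266% of all genes (2 genes), and edgeR and DESeq2 also called 0. At an unadjusted p under 0.05, 8 rows were lower in RSD and 0 higher. Over all genes 4.47% were lower and 3.89% higher at that threshold, 8.36% in either direction. The count moved when single libraries were left out, with 12 rows lower without CTR 22 and 3 without CTR 24. It was 5 without any one of CTR 23, CTR 25, CTR 26, RSD 33 or RSD 38. Leaving out RSD 40, the library labelled female, gave 6 rows lower and a complex I median of −0.099. The 8 rows were Ndufs5, Ndufb6, Ndufs3, Ndufb3, Ndufv3-ps1, Sdha, Ndufb8 and Ndufv2, each with a limma adjusted p between 0.363 and 0.587. The 2 groups overlapped in every tested row. Among all genes, 0.173% had every RSD value under every CTR value, and 0.12% the reverse.

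**Figure D1:**
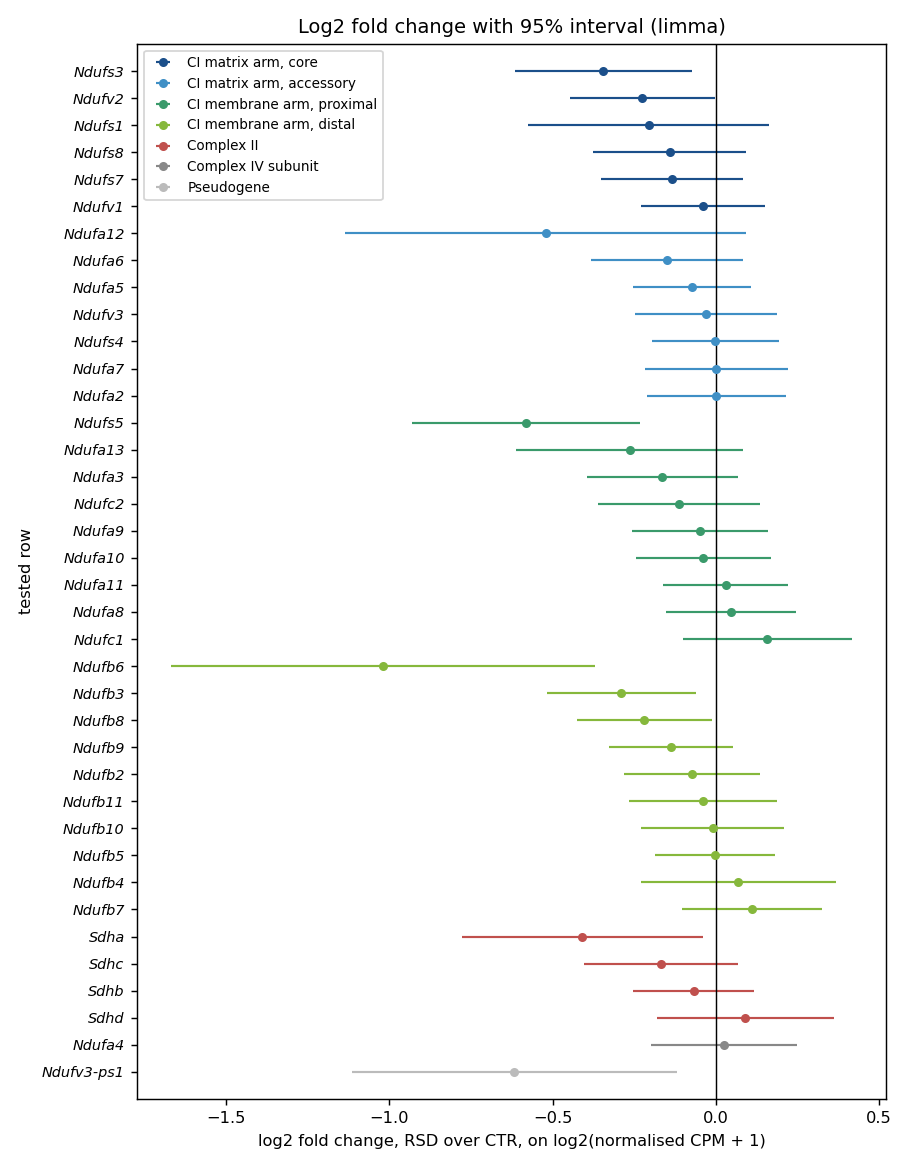
Log2 fold change of the tested rows (all but 1), RSD over CTR, on the log2(normalised CPM + 1) scale (x axis), with its 95% interval from limma, coloured by role (6 libraries per group). Most points lie left of 0, most intervals cross 0, and Ndufb6 has the lowest point, at −1.02.

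The core subunits of the matrix arm carry the flavin, the iron-sulfur clusters and the ubiquinone site, and are shared with bacterial complex I. All 7 had log2 fold changes below 0, and 2 of them, Ndufs3 and Ndufv2, stood at an unadjusted p under 0.05. Ndufs3, a core subunit of the arm that joins the electron path to the membrane (ENSRNOG00000009155), measured 118 to 147 normalised CPM in RSD (median 132) and 98.2 to 201 in CTR (median 185). The CTR libraries other than CTR 22 lay above all of RSD, at 177 or more, and CTR 22 lay below all of RSD. The means were 133 ± 9.68 in RSD and 173 ± 37.6 in CTR (SD, n = 6 each), and the log2 fold change was −0.35 (SE 0.13), with a limma adjusted p of 0.486. Without CTR 22 it was −0.50, and Ndufs3 passed over all genes (limma adjusted p = 0.0131). It was −0.17 with 1 surrogate variable, a hidden factor estimated from all genes, and −0.10 with a mitochondrial covariate, the percentage of reads on the mitochondrial row with the most reads.

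Ndufv2, an iron-sulfur subunit beside the NADH site (ENSRNOG00000042503), measured 427 to 537 normalised CPM in RSD (median 499) and 432 to 727 in CTR (median 573). All 6 RSD libraries lay below the CTR median, and the groups overlapped. Its log2 fold change was −0.23 (SE 0.11), with a limma adjusted p of 0.587, and −0.30 without CTR 22. With the surrogate variable it was −0.07, and with the mitochondrial covariate also −0.07. Ndufv1, its partner that binds NADH and the flavin, measured 417 to 548 in RSD (median 493) and 444 to 553 in CTR (median 510). The log2 fold change of −0.040 (95% interval −0.23 to 0.15) was smaller than the spread between rats, and without RSD 33 it was 0.0062.

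Ndufs1, the large subunit with several iron-sulfur clusters, measured 14.2 to 36.9 normalised CPM in RSD (median 32.7) and 28.6 to 42.1 in CTR (median 33.0). RSD 33 stood alone at 14.2, and the other RSD libraries began at 30.6. Its log2 fold change was −0.21 (95% interval −0.58 to 0.16), and −0.0083 without RSD 33. Ndufs7, which holds the last cluster before ubiquinone, measured 207 to 326 in RSD (median 255) and 246 to 326 in CTR (median 289), with a log2 fold change of −0.13 (95% interval −0.35 to 0.08). Ndufs8, another iron-sulfur subunit, measured 114 to 167 in RSD (median 153) and 129 to 192 in CTR (median 168), with −0.14 (−0.38 to 0.09). In Ndufs7 and Ndufs8 the groups overlapped.

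Accessory subunits of the matrix arm stabilise the core and take no part in electron transfer. Of 7 tested, 5 lay below 0 and 2 above 0, the median was −0.03, and 0 stood at an unadjusted p under 0.05. Ndufa12 rested on few reads, 4 to 34 per library. It measured 1.70 to 5.57 normalised CPM in RSD (median 4.11) and 2.79 to 12.4 in CTR (median 5.74), with a log2 fold change of −0.52 (95% interval −1.14 to 0.09). All 6 RSD libraries lay below the CTR median, and CTR 22, CTR 25 and CTR 27 lay inside the RSD range. Ndufs4, whose loss in mice gives a widely used model of mitochondrial disease, was among the steadiest, at 168 to 225 in RSD (median 205) and 190 to 214 in CTR (median 204), with a log2 fold change of −0.0017 (95% interval −0.20 to 0.19). The values were 0.0015 for Ndufa2, 0.0011 for Ndufa7, −0.03 for Ndufv3, −0.07 for Ndufa5 and −0.15 for Ndufa6.

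Accessory subunits listed here under the proximal membrane arm lie around the mitochondrially encoded subunits near the matrix arm, or at the border with that arm. Of 9 tested, 6 lay below 0 and 3 above, with a median of −0.05. Ndufs5, on the intermembrane space side (ENSRNOG00000029339), had the smallest unadjusted p of all the rows (0.00203). It measured 21.7 to 31.6 normalised CPM in RSD (median 24.8) and 24.2 to 58.0 in CTR (median 39.0). All CTR libraries but CTR 22 lay above the highest RSD library, and CTR 22 lay among the RSD values. The means were 25.4 ± 3.52 in RSD and 39.7 ± 11.9 in CTR (SD, n = 6 each), and the log2 fold change was −0.58 (SE 0.17, limma adjusted p = 0.363). Without CTR 22 it was −0.71, past the threshold over all genes (limma adjusted p = 0.0325), and with the surrogate variable it was −0.37. The other 8 ranged from −0.26 (Ndufa13, also known as the cell death regulator GRIM-19) to 0.16 (Ndufc1), and among them were Ndufa9 at −0.05 and Ndufa8 at 0.05.

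Accessory subunits of the distal membrane arm sit at the far tip of the proton pump. Of 10 tested, 8 lay below 0 and 2 above, the median was −0.06, and 3 stood at an unadjusted p under 0.05. Ndufb6 (ENSRNOG00000024539) rested on 4 to 41 reads per library. It measured 1.70 to 9.63 normalised CPM in RSD (median 4.59) and 4.03 to 15.0 in CTR (median 10.02). RSD 33 lay at 9.63 and the other RSD libraries at 4.89 or less. CTR 22, at 4.03, and CTR 26, at 7.61, lay inside the RSD range. Its log2 fold change was −1.02 (SE 0.32, limma adjusted p = 0.388), and it passed over all genes without CTR 22 and RSD 33 together, at −1.44 (limma adjusted p = 0.0128).

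Ndufb3 (ENSRNOG00000011825) measured 314 to 503 normalised CPM in RSD (median 366) and 396 to 583 in CTR (median 435). RSD 33, the highest of its group, lay among the CTR values, and the other RSD values were all under the CTR range. The log2 fold change was −0.29 (SE 0.11, limma adjusted p = 0.486), or −0.37 without RSD 33. Ndufb8 (ENSRNOG00000014078), often used as a marker of assembled complex I on protein blots, measured 402 to 517 in RSD (median 465) and 407 to 607 in CTR (median 563). All but CTR 22 of the CTR libraries lay above the highest RSD library, and the log2 fold change was −0.22 (SE 0.10, limma adjusted p = 0.566), or −0.30 without CTR 22. It was −0.10 with the surrogate variable and −0.12 with the mitochondrial covariate. Ndufb9 measured 1059.95 to 1339.87 in RSD (median 1116) and 1117 to 1397 in CTR (median 1276), with a log2 fold change of −0.14 (95% interval −0.33 to 0.05). The rest ran from −0.07 (Ndufb2) to 0.11 (Ndufb7).

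**Figure D2:**
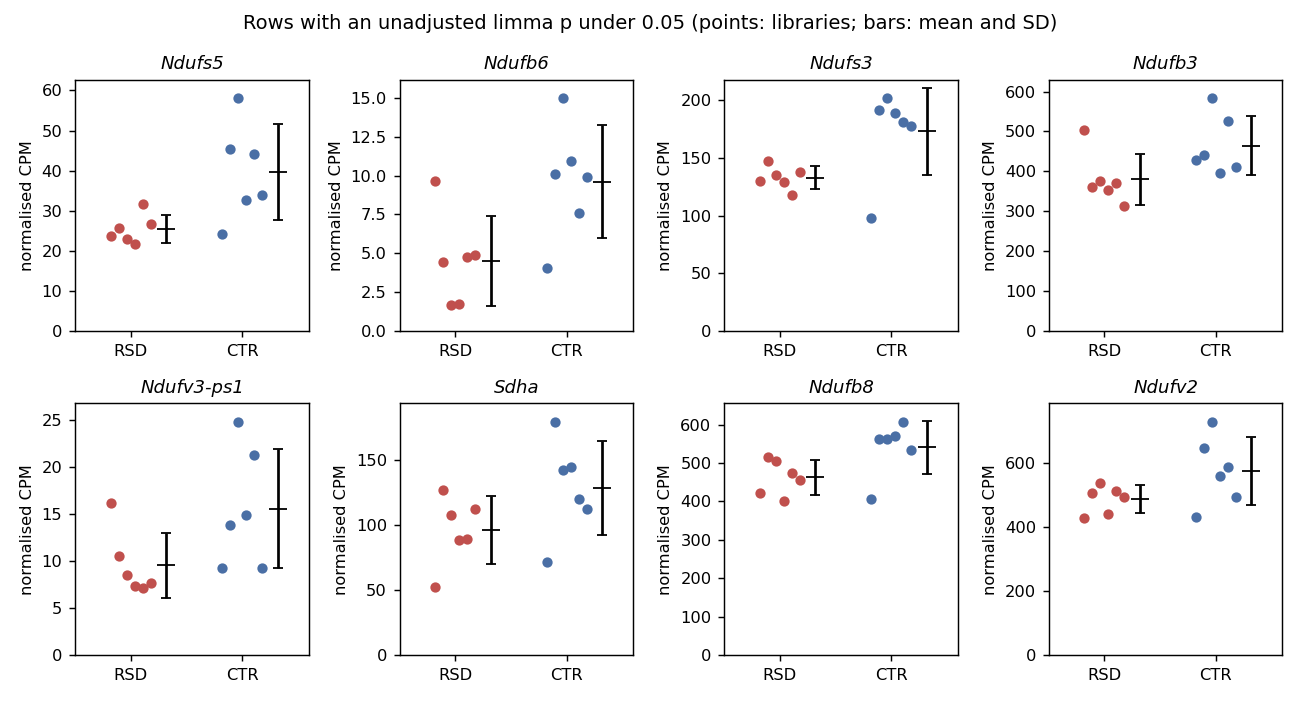
Normalised CPM (y axis, from 0) in each RSD and CTR library for the 8 rows with an unadjusted limma p under 0.05; points are libraries and the bar beside them is the mean with its SD (n = 6 per group). The RSD points of Ndufs3 lie between 118 and 147, and 1 CTR point lies below them, at 98.2.

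In complex II, 3 of 4 subunits lay below 0 and the median log2 fold change was −0.12. Sdha, the flavoprotein that oxidises succinate (ENSRNOG00000013331), measured 52.7 to 127 normalised CPM in RSD (median 98.7) and 71.6 to 179 in CTR (median 131). All 6 RSD libraries lay below the CTR median, and the lowest value of each group came from RSD 33 and CTR 22. The log2 fold change was −0.41 (SE 0.18, limma adjusted p = 0.525), −0.57 without CTR 22 and −0.25 without RSD 33. It was −0.0036 with the surrogate variable and −0.019 with the mitochondrial covariate.

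Sdhb, the iron-sulfur subunit, measured 515 to 678 in RSD (median 613) and 563 to 676 in CTR (median 629.6), with a log2 fold change of −0.07 (95% interval −0.25 to 0.12). Sdhc, a membrane anchor at the ubiquinone site, measured 164 to 262 in RSD (median 239) and 214 to 286 in CTR (median 243), with −0.17 (−0.40 to 0.07), or −0.08 without RSD 33. Sdhd, the other anchor, measured 87.9 to 133 in RSD (median 111) and 75.6 to 134 in CTR (median 103), with 0.09 (−0.18 to 0.36). The groups overlapped for all 3, and for Sdhc RSD 33 and RSD 38 lay below every CTR library.

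Ndufa4 measured 962 to 1474 normalised CPM in RSD (median 1127) and 934 to 1336 in CTR (median 1120), with a log2 fold change of 0.03 (95% interval −0.20 to 0.25). Ndufv3-ps1 is named as a pseudogene, and its reads may belong in part to Ndufv3, so its value is uncertain. It rested on 20 to 70 reads per library, at 7.13 to 16.2 in RSD (median 8.06) and 9.24 to 24.8 in CTR (median 14.4), and the log2 fold change was −0.62 (SE 0.24) with a limma adjusted p of 0.496, or −0.40 with the mitochondrial covariate. Ndufv3 itself measured 176 to 253 in RSD (median 225) and 192 to 261 in CTR (median 227).

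The size of the log2 fold change differed with the mean level of the row. The 8 tested rows that averaged under 100 normalised CPM had a median of −0.39, and the 31 rows of at least 100 had −0.07. Over all genes the medians were 0.0059 under that level and −0.01 from it upward. The 8 rows ran from −1.02 to 0.16 and included the pseudogene row Ndufv3-ps1. Of these 8, 6 lay below 0 and 2 above, beside 48.9% below 0 of all genes under that level. At an unadjusted p under 0.05, 3 of the 8 were lower, beside 285 of 6817 genes under that level. Of the 31 rows, 24 lay below 0, beside 53.6% of all genes of at least 100, and 5 were lower at an unadjusted p under 0.05, beside 7.35%. Relative spread between rats was also wider in the rows with few reads, with a coefficient of variation of 64.0% for Ndufb6 in RSD and 50.5% for Ndufa12 in CTR. The lowest were 5.34% for Ndufb2 in RSD and 4.73% for Ndufs4 in CTR.

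**Figure D3:**
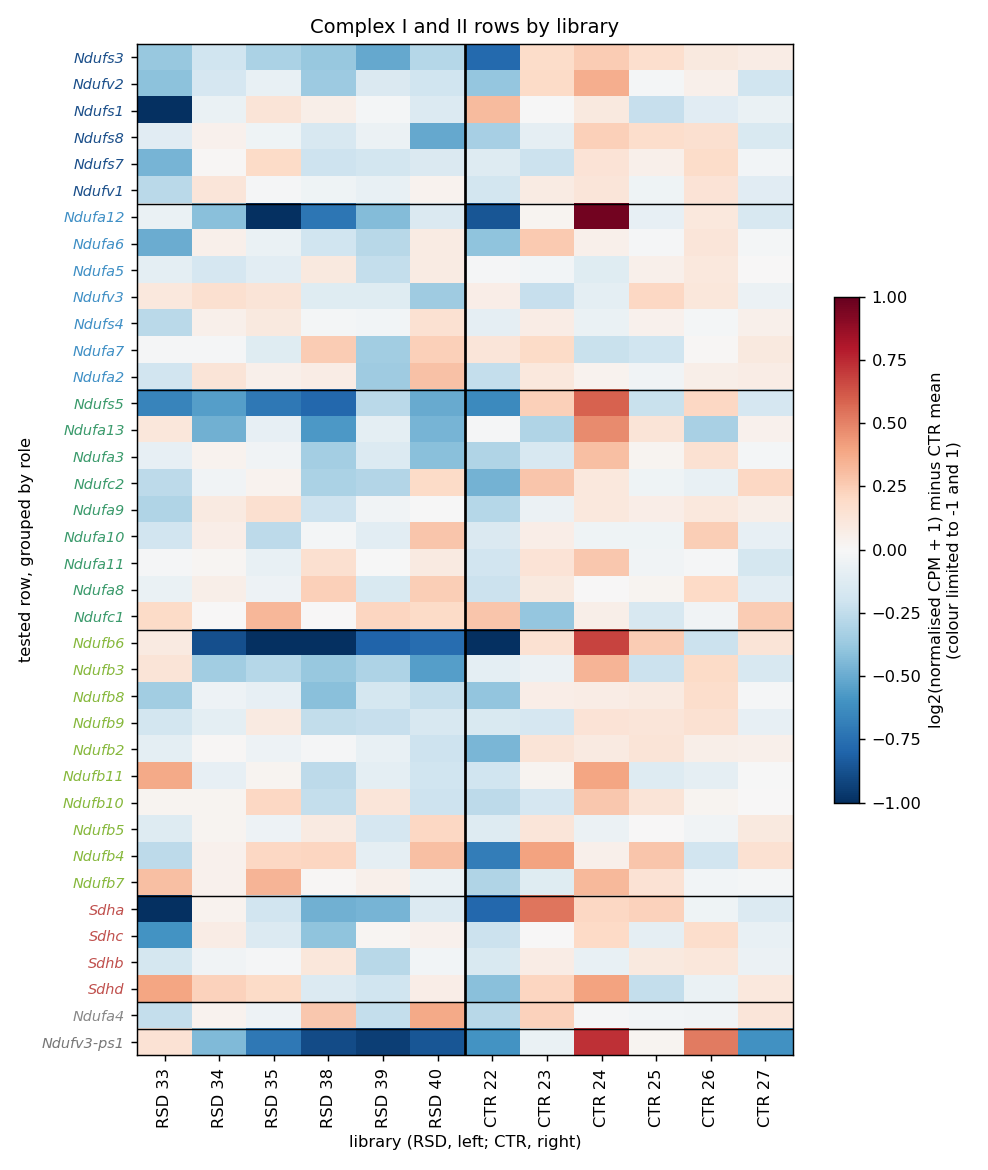
Level of the tested rows (all but 1; y axis, grouped by role) in each library (x axis) as log2(normalised CPM + 1) minus the CTR mean of the row, with red for higher and blue for lower (colour limited to −1 and 1). CTR 22 is blue in most rows, CTR 24 is red in many, and Ndufs3, Ndufs5 and Ndufb8 are blue in all 6 RSD libraries.

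Averaged over the 33 tested complex I subunits, the level was 7.51 to 7.64 on the log2 scale in RSD (median 7.58) and 7.45 to 7.90 in CTR (median 7.74). CTR 22 lay below all RSD libraries, and the other CTR libraries, from 7.71 upward, lay above them. Without CTR 22 the median log2 fold change was −0.14 for complex I and −0.15 for complex II, and without RSD 33 it was −0.07 and −0.06. The SD between rats was 0.051 in RSD and 0.15 in CTR. The 4 complex II subunits averaged 7.32 to 7.80 in RSD (median 7.59) and 7.33 to 7.93 in CTR (median 7.75), and the groups overlapped. Summed levels were 10041 to 11171 normalised CPM in RSD and 9882 to 12239 in CTR for complex I. For complex II they were 904 to 1119.71 in RSD and 924 to 1205 in CTR.

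The most abundant row of the mitochondrial genome took a larger share of reads in RSD at the median, and the groups overlapped. It took 19.4% to 25.7% of reads in RSD (median 23.3) and 17.9% to 24.2% in CTR (median 18.3), and CTR 22 held the CTR maximum. With that share as a covariate, the median log2 fold change was −0.02 for complex I and 0.021 for complex II, with 2 rows lower and 1 higher at an unadjusted p under 0.05. With 1 surrogate variable the medians were −0.01 and 0.014, with 4 rows lower and 1 higher. Ndufb3 and Ndufb6 were among the lower rows in both, and the higher row was Ndufb4.

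**Figure D4:**
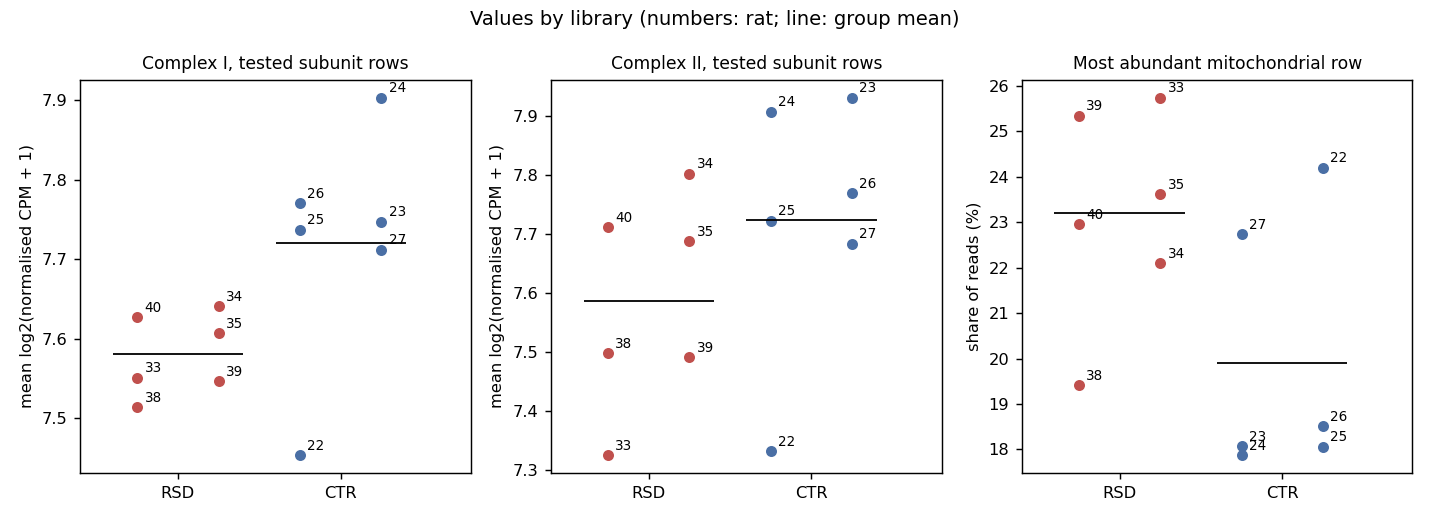
Mean log2(normalised CPM + 1) of the tested complex I and complex II subunits, and the share of reads of the most abundant mitochondrial row in percent (y axes), for each rat of RSD and CTR; numbers name the rats and lines are group means. In complex I, CTR 22 lies lowest, at 7.45, and the other CTR libraries lie above all RSD libraries, which end at 7.64.

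Of the markers of other cell types, 0 passed at limma adjusted p 0.05, and 3 stood at an unadjusted p under 0.05. Over all genes tested, 0.0266% passed, 8.36% stood at that unadjusted threshold in either direction, and 49.3% lay below 0. All 7 tested macrophage and leukocyte markers lay below 0, with a median log2 fold change of −0.30, and their sum was 265 to 308 normalised CPM in RSD and 272 to 412 in CTR. Of 5 smooth muscle and pericyte markers 4 lay below 0 (median −0.44; sums of 52.7 to 93.0 in RSD and 64.3 to 112 in CTR), as did 4 of 5 fibroblast markers (median −0.03; 631 to 701 in RSD and 577 to 788 in CTR). Col3a1, a fibrillar collagen, was lower at an unadjusted p under 0.05, with a log2 fold change of −0.38 (SE 0.12). Of 6 endothelial markers 4 lay above 0 (median 0.10; 202 to 234 in RSD and 169 to 231 in CTR), as did all 4 atrial markers (median 0.39; 109 to 494 in RSD and 131 to 260.4 in CTR, Bmp10 at 0) and 4 of 5 red blood cell markers (median 0.40; 2414 to 26705 in RSD and 2383 to 13718 in CTR). Of the fat markers, Ucp1 and Plin1 were at 0 and the sum was 135 to 156 in RSD and 132 to 203 in CTR. Nearly all of that sum was Fabp4, at 132 to 154 in RSD and 131 to 202 in CTR. Adipoq reached at most 2.03 and Cidea at most 2.74. Higher at that threshold were the endothelial receptor Tek, at 0.48 (SE 0.17), and Ahsp, which stabilises haemoglobin, at 0.86 (SE 0.39). The 12 cardiomyocyte markers had a median of −0.01, with 7 below 0, and Mb, the oxygen carrier myoglobin, was higher at that threshold, at 0.25 (SE 0.11). The part of these cell types in the subunit levels was not tested.

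Assembly factors, which build the complexes and do not stay in them, had small differences for the most part. Of 13 tested factors for complex I, 5 lay below 0 and 8 above, the median was 0.02, and 0 stood at an unadjusted p under 0.05. Ndufaf6 had the lowest log2 fold change, at −0.45 (SE 0.30), and Ndufaf1 the highest, at 0.06 (SE 0.30). For complex II, Sdhaf2, which helps attach the flavin to Sdha, had −0.0013. Sdhaf4 had −0.65 (SE 0.34), at 1.02 to 4.21 normalised CPM in RSD and 1.24 to 7.92 in CTR.

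The complex I subunits of the mitochondrial genome had 6 tested rows, all below 0, with a median log2 fold change of −0.12. Mt-nd4l was the 1 row at an unadjusted p under 0.05, at 537 to 1058 normalised CPM in RSD (median 701) and 569 to 2315 in CTR (median 959), with −0.48 (SE 0.21, limma adjusted p = 0.517). Mt-nd1 measured 26608 to 45719 in RSD (median 40620.3) and 30154 to 51135 in CTR (median 36617), with −0.01 (SE 0.15). The row named Mt-nd4 held at most 1.84 normalised CPM in RSD and 2.05 in CTR and was not tested. Whether Mt-nd4 was low or its reads were not assigned to this row cannot be told apart. Ndufab1, the mitochondrial acyl carrier protein that is also a complex I subunit, falls outside the symbol rule. It measured 39.0 to 59.6 in RSD (median 49.3) and 38.1 to 107 in CTR (median 73.3), with −0.49 (SE 0.18, limma adjusted p = 0.458).

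Nuclear genes of the respiratory chain are known targets of NRF1, of the estrogen-related receptors and of YY1, so promoter windows were searched for letters of these motifs. The windows run from 250 bases before to 50 after the annotated start (RefSeq, build GRCr8), and 35 of the 39 tested rows had one by symbol. The NRF1 letters GCGCATGCG stood in 1 of 35 (2.86%), beside 1.52% of all 33469 windows. The estrogen-related receptor letters AAGGTCA stood in 4 of 35 (11.4%), beside 4.61%. The YY1 letters AAGATGGCG stood in 6 of 35 (17.1%), beside 1.73%. Both strands were searched, overlapping matches were kept, and no window of these genes held more than 1 of the motifs. The YY1 letters contain ATG, the letters of a start codon, and all 6 matches lay after the annotated start on the strand of the gene, so a YY1 motif and the start of the reading frame cannot be told apart. Over all windows 51% of 606 matches lay after the start and 68.3% on the strand of the gene.

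The 30 bases around each YY1 match are shown because they are the stretch that most members with a match share, with the motif in capitals, 5′ to 3′ on the strand of the gene. Of these genes only Ndufb8 stood at an unadjusted p under 0.05 for the difference between RSD and CTR.
Ndufa2, minus strand, chr18:28631839-28631868: tttgctagcaAAGATGGCGgccgcaagccg
Ndufa6, minus strand, chr7:115750283-115750312: cttccttagcAAGATGGCGgccgcggccag
Ndufa9, minus strand, chr4:161374141-161374170: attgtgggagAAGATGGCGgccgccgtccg
Ndufb8, minus strand, chr1:253362896-253362925: ggagaaggtgAAGATGGCGgcgtcccgggc
Ndufs4, minus strand, chr2:47794891-47794920: tgcccacaggAAGATGGCGgcggtctcaat
Ndufs7, minus strand, chr7:10110475-10110504: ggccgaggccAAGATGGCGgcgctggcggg

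The NRF1 match in Ndufa11, whose log2 fold change was 0.03, is shown because the letters occur 4 times in overlap, counting both strands, from 97 bases before the start.
Ndufa11, plus strand, chr9:1637510-1637539: gcgctgtGCGCATGCGCATGCGCacaggcc

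Ndufs5 had the smallest unadjusted p. Of the 8 rows with an unadjusted p under 0.05, Ndufv3-ps1 had no window, and Ndufs5 was the one among the others with a receptor match. Its match, on the opposite strand (TGACCTT, in capitals), lay 221 bases before the start, and the 250 bases before the start are shown for context.
Ndufs5, minus strand, chr5:141264403-141264652: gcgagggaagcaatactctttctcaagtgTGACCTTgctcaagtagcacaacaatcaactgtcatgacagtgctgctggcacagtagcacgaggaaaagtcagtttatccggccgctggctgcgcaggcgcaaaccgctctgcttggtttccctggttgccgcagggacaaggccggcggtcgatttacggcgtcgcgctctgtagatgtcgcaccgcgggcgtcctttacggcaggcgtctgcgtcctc
The other receptor matches were in Ndufb2, Ndufb4 and Sdhd, whose log2 fold changes were −0.07, 0.07 and 0.09. A match describes letters in this window and shows no binding.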

How the data were processed

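Per the labels' protocols, 3′ end libraries (QuantSeq forward kit) were made from 100 ng of total RNA. The authors deposited 1 table in CPM, with a group line above the library columns. Build rn6, HTSeq 0.9.1, STAR 2.6.0a, bcl2fastq and DESeq2 are listed, without roles, in the submitters' processing notes, and which annotation was used is not stated there. Low values were whole multiples of 1 step per library, which recovered the reads (100% whole within 0.1 read in every library, for values up to 1000 reads). Fits used limma 3.58.1 in R 4.3.3 on log2(CPM + 1) after TMM factors from edgeR 4.0.16, with a variance trend, two-sided, adjusted by Benjamini-Hochberg over 7511 genes kept by filterByExpr (minimum count 10). This scale understates changes of low genes. P-values set the difference between the groups against the spread between rats. edgeR and DESeq2 1.42.0 on recovered reads, limma-voom and sva 3.50.0 were alternatives. The limma, limma-voom, edgeR and DESeq2 fits were tested on simulated data. The members and lists were chosen with earlier results of these data known, and named rows are the core and complex II subunits, rows at an unadjusted p under 0.05, and the complex I rows with the highest and lowest mean; others were named after their values were seen. The values of 1 row are not reported here. Promoter windows are of another build than the table and were matched by symbol only.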

Additional observations from a re-analysis of the deposited data

Results flagged for a closer look

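The 6 values of each tested row in each group formed a set, as did the mean complex I and complex II levels in each group. In all, 82 sets were checked for 1 value far from the rest. There were 7 such sets, and about 4.1 would arise by chance. CTR 22 was lowest for Ndufs3 (98.2 normalised CPM, the next at 177), Ndufb8 (407, the next at 533) and Ndufb2 (206, the next at 293). CTR 24 was highest for Ndufb11 (748, the next at 578). RSD 33 was lowest for Ndufs1 (14.2, the next at 30.6) and highest for Ndufb3 (503, the next at 377) and Ndufv3-ps1 (16.2, the next at 10.5). The cause was not tested.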

How the results depend on the processing

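No paired analysis was possible because the groups share no replicate numbers. No row passed at limma adjusted p 0.05 in any fit except without CTR 22 (2 rows, Ndufs3 and Ndufs5) and without CTR 22 and RSD 33 together (3 rows, with Ndufb6 added), so the range over leaving out 1 library was 0 to 2. CTR 22 was singled out for its low values, so these calls are no independent support. Over all genes, 2 passed in the main test, 0 with no filter, 1 with at least 50 reads in 6 libraries, 0 with 1 surrogate variable, 0 with the mitochondrial covariate, 37 without both libraries and 0 to 41 without 1 library. At an unadjusted p under 0.05 the fits with no filter, the surrogate variable and the covariate held 953, 368 and 276 genes. Rows lower at that threshold numbered 5 with the 50-read filter, which leaves 36 rows, 4 with the surrogate variable, 2 with the covariate and 3 (without CTR 24) to 12 (without CTR 22) without 1 library; 5 remained without CTR 23, CTR 25, CTR 26, RSD 33 or RSD 38. Rows higher numbered 1 with the surrogate variable and 1 with the covariate. The same 8 rows stood lower with RLE factors, CPM as deposited, mitochondrial rows left out, both other pseudocounts, edgeR, DESeq2 and limma-voom. The complex I median stayed below 0 in all fits (−0.14 to −0.01). The complex II median was 0.014 with the surrogate variable and 0.021 with the covariate. With the surrogate variable the sign turned for Sdhc (0.031), Ndufs1 (0.0022) and Ndufv1 (0.079), with the covariate for Sdhb (0.060) and Ndufv1 (0.080), and without CTR 22 and RSD 33 for Ndufs1 (0.056) and Sdhd (−0.051). Ndufv1 ranged from −0.076 to 0.0062 without 1 library. The cause was not tested. The covariate and the joint omission were chosen after seeing the data. Rows with few reads (Ndufb6, Ndufa12, Ndufv3-ps1) are limited by depth.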

Other observations

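Among 11 genes of other mitochondrial structures, 8 lay below 0, with a median log2 fold change of −0.26. At an unadjusted p under 0.05 stood 4, all lower in RSD. Over all genes 49.3% lay below 0, and 4.47% were lower at that threshold. Slc25a4, the ADP/ATP carrier of heart mitochondria, measured 8629 to 9235 normalised CPM in RSD (median 9015) and 9566 to 13557 in CTR (median 10818). The groups did not overlap, and 0.173% of all genes had every RSD value under every CTR value. The log2 fold change of Slc25a4 was −0.32 (SE 0.11) with a limma adjusted p of 0.433. Phb2, a prohibitin of the inner membrane, had −0.41 (SE 0.12, limma adjusted p = 0.363) and Vdac1, the outer membrane channel, −0.43 (SE 0.15, limma adjusted p = 0.433). Tomm20, an import receptor named after its values were seen, had −0.33 (SE 0.14). Cs, citrate synthase, often used as a measure of mitochondrial content, had 0.07 (SE 0.14).

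Of 9 tested regulators of mitochondrial genes, including Tfam (−0.15) for the mitochondrial genome, 5 lay below 0 and 4 above. Ppargc1b, a coactivator, was the 1 gene at an unadjusted p under 0.05, at 31.8 to 53.4 normalised CPM in RSD (median 45.5) and 28.4 to 45.9 in CTR (median 32.4), and the log2 fold change was 0.37 (SE 0.15) with a limma adjusted p of 0.496. Ppargc1a had −0.08, Esrra −0.25, Yy1 −0.23 and Nrf1 0.27, each with an interval across 0, and these were named after their values were seen.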
